A study of Mus musculus with 8 samples.

Results

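The transcripts described here encode 10 cell-surface proteins by which mouse haematopoietic stem cells (HSCs) and their first progeny are told apart in a cell sorter: Cd34, Kit, Ly6a, Slamf1, Cd48, Flt3, Procr, Thy1, Cd27 and Cd9. Their rows were found by symbol, without use of a measured value. Each symbol matched 1 row among the 55487 gene rows of every count file. The 10 genes were chosen with earlier results of these data known, so shares of them given below may not be independent of the data. The libraries are bulk Smart-seq2 libraries, a full-length cDNA method for small numbers of cells, and came from sorted HSCs. The 4 miR652-KD libraries carry a knockdown of the microRNA miR-652, and the 4 NTC libraries a non-target control. The labels leave out the knockdown method, the strain and age of the mice, the gate of the sort and whether each replicate was a separate animal. The p-values below therefore rest on the spread among libraries alone, and that spread may be technical.

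The blood stem cell of the adult mouse bears the receptor Kit and the Ly6 protein Sca-1, the product of Ly6a, and lacks the surface antigens of mature lineages. Within that compartment the most primitive cells carry the SLAM protein CD150 (Slamf1) and the protein C receptor (Procr), with little or no CD48, Flt3 or CD34. Multipotent progenitors gain CD34, Flt3 or CD48 as they leave the stem cell state. A transcript level is not a surface protein level, and in a bulk library fewer cells of a type and less RNA per cell cannot be told apart.

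The microRNA that sets the groups apart has a mature product from each arm of its hairpin on chromosome X (RefSeq, GRCm38.p6). They are shown because the seed, bases 2 to 8 and given here in capitals, is the stretch by which a microRNA chiefly pairs with transcripts.

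mmu-miR-652-3p, chrX:142739060-142739080, plus strand: aAUGGCGCcacuaggguugug

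mmu-miR-652-5p, chrX:142739020-142739043, plus strand: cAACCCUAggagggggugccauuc

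The microRNA gene Mir652 had 5, 0, 0 and 0 counts in miR652-KD replicates 1 to 4, and 1, 0, 0 and 2 counts in NTC replicates 1 to 4. Mature microRNAs are too short for this kind of library, so these counts do not check the knockdown.

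The longest annotated 3′ UTRs of the 10 genes ran from 381 bases in Cd48 to 2177 bases in Kit. None of the 10 held the letters that pair with a whole seed, GCGCCAT for miR-652-3p and, for miR-652-5p, TAGGGTT, in the longest or any other annotated 3′ UTR. The longest Kit 3′ UTR held 1 match to the miR-652-5p seed without its last base. No other of the 10 held such a shorter match for either arm in its longest 3′ UTR, and its share over all genes was not counted. Among 11625 tested genes with a 3′ UTR, 2.58% held GCGCCAT and 8.61% TAGGGTT. No match says only that these letters are not in these windows.

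Of the 10 genes, 8 have an entry in the RefSeq promoter table of GRCm38.p6. The 250 bases before the RefSeq start are printed for Cd34, Kit and Cd27, the 3 genes whose level was below every NTC library in all 4 miR652-KD libraries. Kit has a pair of RefSeq starts and the first is shown. Gene positions given below are from GENCODE and begin at 75574916 for Kit and 194938819 for Cd34. The Kit stretch therefore runs into the gene as placed there, and the Cd34 stretch ends just past that start. Capitals mark GGAAG on either strand, a core of ETS-factor motifs.

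Cd34, chr1:194938571-194938820, plus strand: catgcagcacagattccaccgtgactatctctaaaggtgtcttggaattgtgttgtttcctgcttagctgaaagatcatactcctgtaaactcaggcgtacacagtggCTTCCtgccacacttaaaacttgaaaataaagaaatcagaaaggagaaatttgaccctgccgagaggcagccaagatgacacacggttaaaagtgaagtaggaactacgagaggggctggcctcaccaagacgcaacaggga

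Kit, chr5:75574737-75574986, plus strand: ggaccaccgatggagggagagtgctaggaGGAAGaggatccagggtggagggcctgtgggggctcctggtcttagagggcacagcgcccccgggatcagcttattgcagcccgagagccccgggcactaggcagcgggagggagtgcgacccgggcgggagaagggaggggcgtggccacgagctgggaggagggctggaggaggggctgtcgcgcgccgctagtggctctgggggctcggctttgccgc

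Cd27, chr6:125237028-125237277, minus strand: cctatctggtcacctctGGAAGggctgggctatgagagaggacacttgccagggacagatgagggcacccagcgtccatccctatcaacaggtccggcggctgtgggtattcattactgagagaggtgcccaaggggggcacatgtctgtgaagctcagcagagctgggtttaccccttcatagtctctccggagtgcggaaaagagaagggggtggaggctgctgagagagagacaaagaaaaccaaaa

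Each of the 3 stretches held 1 such match, and 64.1% of 32851 promoters of the same length held 1 or more. The GATA-factor letters GATAA were in none of the 3 on either strand and in 22.6% of promoters. The RUNX-factor letters TGTGGT were likewise in none of the 3 and in 14% of promoters, and the E-box letters CAGCTG in none and in 13%. The Cd34 stretch had 6 CpG and 46.4% G and C, against 17 CpG and 70.8% in Kit.

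Counts in genes came to 14677644 to 19894821 per library in miR652-KD and 14017632 to 16763709 in NTC. Levels below are in CPM, these counts scaled to the library's gene total, and 4 values of a group follow its replicates 1 to 4. HSC genes outside the 10 were present in every library: the transcription factor gene Hlf stood at 327 to 375 CPM in miR652-KD and 366 to 431 CPM in NTC. Of 14 genes for antigens of mature lineages, 5 had 0 counts in all 8 libraries (Cd3e, Cd3g, Cd8a, Cd8b1 and Cd5). Whether cells with these antigens were removed in the sort is not given in the labels. NTC replicate 1 stood apart in its share of reads outside annotated genes, 16.94% against 9.69% to 11.35% in the other libraries. Transcripts of other blood cells were uneven. S100a9, a neutrophil calcium-binding protein gene, was at 5.52, 9.06, 11.7 and 6.41 CPM in miR652-KD, and at 2.15, 2.71, 775 and 1186 CPM in NTC.

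Divided by the length of all annotated exons, the 10 transcripts fell into a high and a low tier in each library. Ly6a, Cd27, Cd9, Procr, Cd34 and Kit lay between 34.7 and 406.4 CPM per kilobase in every library. Slamf1, Flt3, Cd48 and Thy1 lay between 0 and 15.7 CPM per kilobase. Ly6a was highest in all 8 libraries, at 352.4 ± 67.1 CPM per kilobase in miR652-KD and 230.5 ± 21.6 in NTC (SD, n = 4 each). Cd27 was above Cd9, the next in order, in 6 of 8 libraries, so that the spread did not separate this pair. Cd9 was above Procr in 8 of 8, and Procr above Cd34 in 7 of 8. Cd34 and Kit could not be ordered, with Cd34 above in 4 of 8. Kit was above Slamf1 in 8 of 8 libraries. Among Slamf1, Flt3, Cd48 and Thy1 no neighbours in the order were separated in all libraries: Slamf1 exceeded Flt3 in 3 of 8, Flt3 exceeded Cd48 in 3 of 8, and Cd48 exceeded Thy1 in 6 of 8. The length used moves the place of Cd34, whose annotated exons sum to 7290 bases but whose longest transcript has 3063. On the length of the longest transcript Cd34 was at 102 CPM per kilobase in miR652-KD and 167.9 in NTC and stood at rank 4, above Procr in 7 of 8 libraries.

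**Figure D1:**
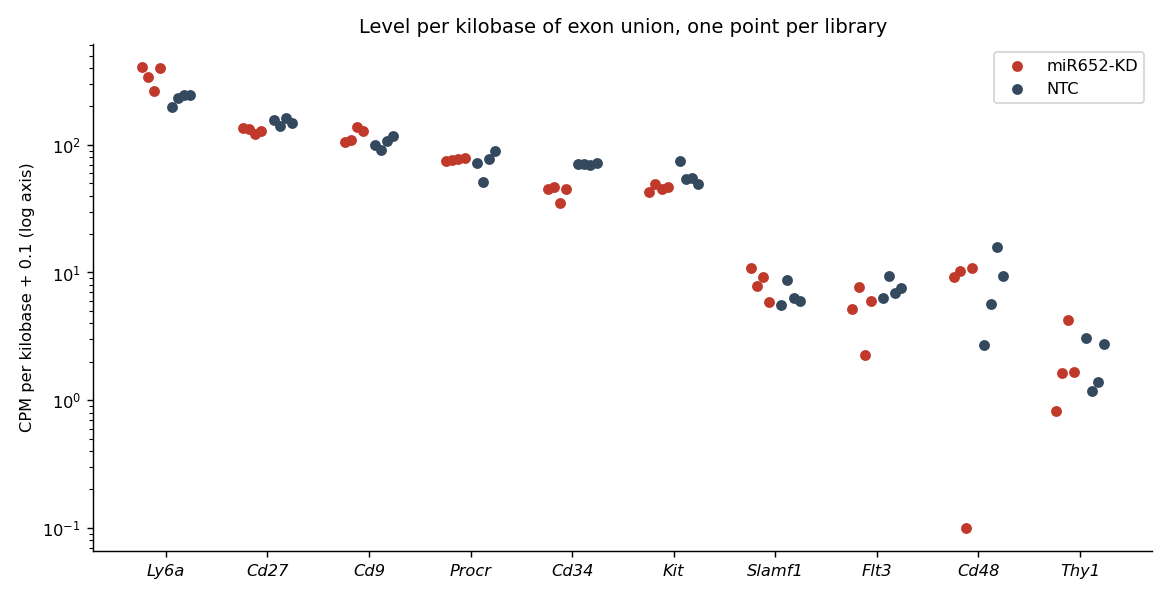
Level of each transcript per kilobase of annotated exon (CPM per kilobase plus 0.1, log axis), with 1 point per library, miR652-KD left and NTC right of each tick. The 6 transcripts on the left lie at or above 34.7 CPM per kilobase in all 8 libraries and the 4 on the right at or below 15.7, with Cd48 at 0 in miR652-KD replicate 3.

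The comparison of miR652-KD with NTC asks which transcripts differ when miR-652 is knocked down. All 10 genes passed the filter on low counts and were tested by edgeR's quasi-likelihood test among 14360 genes. None passed an adjusted p of 0.05, a threshold that 6 of 14360 genes passed (0.0418%). At an unadjusted p below 0.05 stood 4 of the 10 (Cd34, Ly6a, Kit and Cd27), against 5.99% of all tested genes. The same 4 had no overlap in CPM between groups, 3 with miR652-KD lower and 1 with miR652-KD higher, against 4.50% of all genes in either direction, 2.15% with miR652-KD lower and 2.35% with miR652-KD higher. The log2 fold change was above 0 for 5 of the 10 and below 0 for 5, with a median of -0.07, and 49.5% of all tested genes were above 0. DESeq2 passed 2 of the 10, Cd34 and Ly6a, where it passed 0.426% of 14328 genes with an adjusted p, and limma-voom with quality weights passed Cd34 alone, where it passed 7 of 14360 genes (0.0487%).

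**Figure D2:**
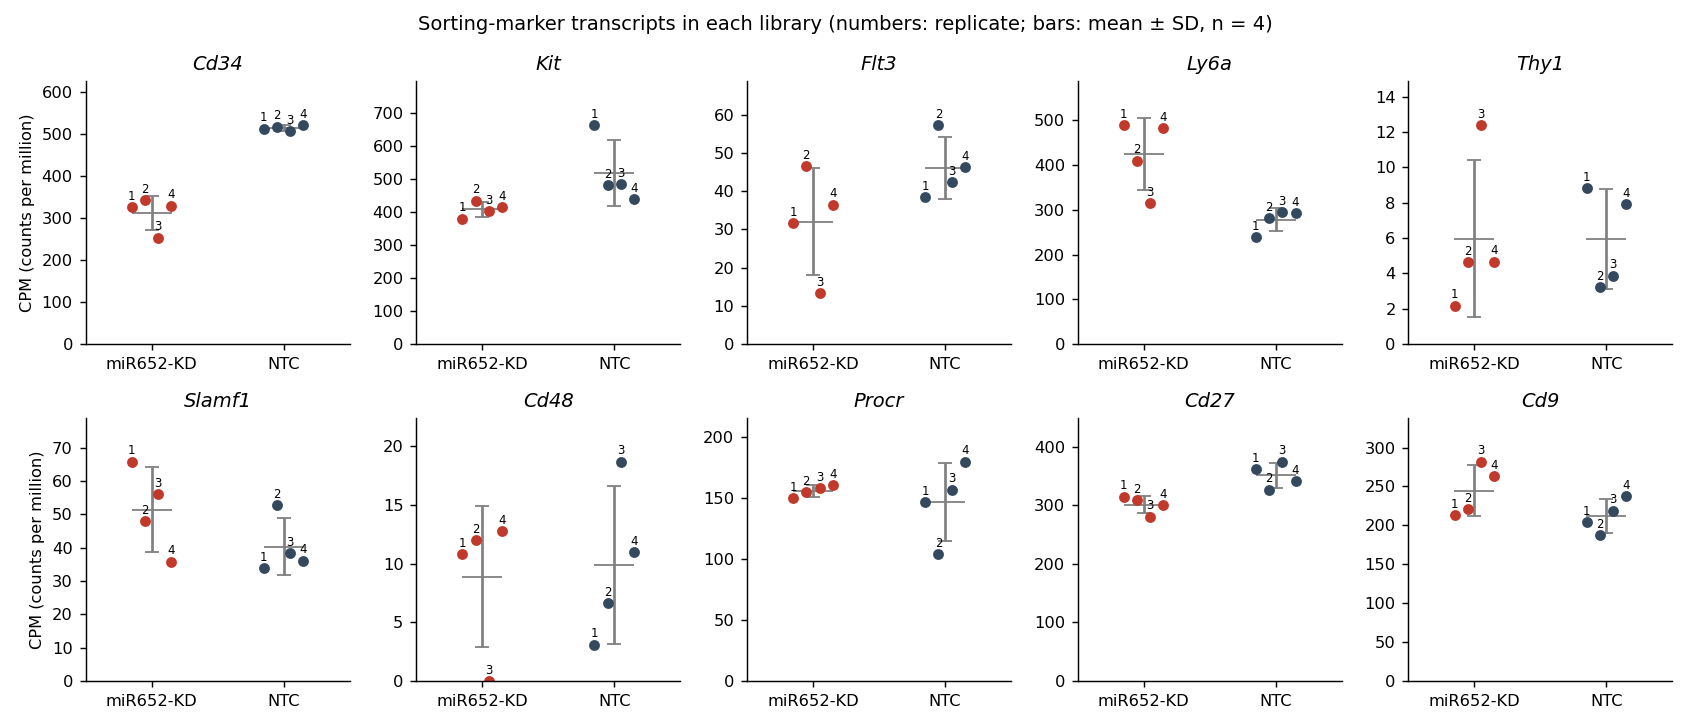
CPM of each transcript in each library, in panels with their own axis from 0, with miR652-KD left and NTC right. Points carry the replicate number and bars give the mean ± SD (n = 4 each). The groups are apart in Cd34, Kit, Ly6a and Cd27 and overlap in the other 6.

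Cd34 (ENSMUSG00000016494.9, mm10 chromosome 1, 194938819 to 194961279, plus strand) encodes a sialomucin that marks progenitors more strongly than the most primitive mouse HSCs. Its level was 326, 342, 253 and 329 CPM in miR652-KD, and 512, 517, 506 and 521 CPM in NTC. Every miR652-KD library lay below every NTC library, and replicate 3 was the lowest. The means were 312.5 ± 40.3 CPM in miR652-KD and 514.1 ± 6.29 CPM in NTC (SD, n = 4 each), a log2 fold change of -0.71 (SE 0.11) or a ratio of 0.61. It ranked 7 of 14360 genes by p and did not pass (edgeR adjusted p = 0.1248), while DESeq2 gave an adjusted p of 6.472e-07 and limma-voom one of 0.04894. The 4 NTC values differed by a coefficient of variation of 1.22%, near the 1.14% that counting alone would give for their mean of 7744 counts. In miR652-KD it was 12.9%, where counting would give 1.38%. Of the exons, 148 bases are shared with the antisense gene Gm16897, whose reads cannot be separated without strand.

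Cd34 was also read beside the transcripts of other blood cells in the same libraries. Within NTC the summed level of 12 neutrophil genes ran from 570.2 to 15653 CPM, and Cd34 was at 506 to 521 CPM. Haemoglobin transcripts were abundant in 1 miR652-KD library: Hba-a1 was at 2.18, 37.1, 65.8 and 1239 CPM in miR652-KD, and at 1013, 2575, 1247 and 2298 CPM in NTC. Replicate 4 of miR652-KD, within the NTC range of Hba-a1, had 329 CPM of Cd34. Alas2, the erythroid enzyme of haem synthesis, did separate the groups, with 1.77, 1.70, 7.74 and 17.3 CPM in miR652-KD and 57.7, 51.6, 42.2 and 59.2 CPM in NTC (edgeR adjusted p = 0.5893). The part of neutrophil or erythroid transcripts in the Cd34 difference was not tested. Leaving out single libraries, the Cd34 log2 fold change ran from -0.75 to -0.62.

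The relatives of Cd34 were sparse. Podxl, podocalyxin, was at 5.35 to 17.8 CPM in miR652-KD and 6.92 to 43.5 CPM in NTC, with overlap and a log2 fold change of -1.19 (SE 0.58, edgeR adjusted p = 0.8604). Podxl2 was below the filter.

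The profiles over the 8 libraries most like that of Cd34, among 7831 other protein-coding genes at a mean of 20 CPM or more, belonged to Jmy, Cdk6 and Acap2. Likeness was the root mean square difference of centred log2(CPM + 1), which was 0.14 for Jmy, 0.15 for Cdk6 and 0.16 for Acap2. Cdk6, a cyclin D-dependent kinase, averaged 1243 ± 108 CPM in miR652-KD and 1775 ± 169 CPM in NTC (SD, n = 4 each). Jmy averaged 30.3 ± 3.12 CPM in miR652-KD and 44.1 ± 4.74 CPM in NTC, and Acap2 44.8 ± 8.87 CPM in miR652-KD and 62.5 ± 4.63 CPM in NTC. These genes were picked for following Cd34, so their differences carry no separate test here.

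Kit (ENSMUSG00000005672.12, chromosome 5, 75574916 to 75656722, plus strand) encodes the receptor tyrosine kinase for stem cell factor. Its level was 380, 435, 402 and 416 CPM in miR652-KD, and 664, 482, 485 and 440 CPM in NTC. The groups did not overlap, but miR652-KD replicate 2 at 435 and NTC replicate 4 at 440 CPM were close, and NTC replicate 1 stood well above the rest. The means were 408.4 ± 23.3 CPM in miR652-KD and 517.7 ± 99.6 CPM in NTC (SD, n = 4 each), a log2 fold change of -0.34 (SE 0.12) that did not pass (edgeR adjusted p = 0.7823). Without NTC replicate 1 the log2 fold change was -0.21, which is the smallest size it took when single libraries were left out.

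Flt3 (ENSMUSG00000042817.15, chromosome 5, 147330741 to 147400489, minus strand) encodes the receptor kinase for FLT3 ligand and is low in HSCs and high in lymphoid-primed progenitors. Its level was 31.6, 46.6, 13.4 and 36.5 CPM in miR652-KD, and 38.5, 57.3, 42.3 and 46.3 CPM in NTC. The groups overlapped, and miR652-KD replicate 3 was the lowest library. The log2 fold change of -0.52 (SE 0.34) did not pass (edgeR adjusted p = 0.9362). It was -0.26 without miR652-KD replicate 3.

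Of 5 genes of the receptor family, Kit and Flt3 included, 3 were tested, 0 passed and 3 had a log2 fold change below 0. Pdgfrb, a receptor for platelet-derived growth factor, was at 1.40 to 10.7 CPM in miR652-KD and 5.64 to 38.3 CPM in NTC (log2 fold change -1.99, SE 0.81, edgeR adjusted p = 0.8256). The macrophage receptor gene Csf1r had 0.352 to 8.18 CPM in miR652-KD and 0 counts in all NTC libraries, below the filter. Kitl, the ligand of Kit, had counts in NTC replicate 4 alone, at 3.21 CPM. Of 20 genes of Kit and Flt3 signalling, all were tested, 10 were above 0 and 10 below, and 0 passed. Pik3ca, a catalytic subunit of PI3-kinase, was at 38.8, 37.0, 37.6 and 22.9 CPM in miR652-KD and 42.0, 47.5, 54.6 and 45.8 CPM in NTC (log2 fold change -0.48, SE 0.22, edgeR adjusted p = 0.8443). The groups were without overlap, and the difference did not pass.

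Ly6a (ENSMUSG00000075602.10, chromosome 15, 74994877 to 74998031, minus strand) encodes Sca-1, a lipid-anchored protein of stem and progenitor cells. It had the largest positive log2 fold change of the 10. Its level was 490, 410, 316 and 483 CPM in miR652-KD, and 240, 282, 296 and 293 CPM in NTC. All miR652-KD values lay above all NTC values, with miR652-KD replicate 3 the nearest to them. The means were 424.6 ± 80.9 CPM in miR652-KD and 277.8 ± 26.0 CPM in NTC (SD, n = 4 each), a log2 fold change of 0.62 (SE 0.15) or a ratio of 1.53. It did not pass in edgeR (adjusted p = 0.5976) and passed in DESeq2 (adjusted p = 0.02211). Without miR652-KD replicate 3 the log2 fold change was 0.74 (edgeR adjusted p = 0.3009).

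Some Ly6 genes are alike in sequence. How reads that match more than 1 of them were handled is not given in the sources used here, so their counts are uncertain. Ly6e, the most abundant of them, was at 1049, 1110, 1015 and 965 CPM in miR652-KD and 763, 906, 943 and 1014 CPM in NTC, with overlap (log2 fold change 0.19, SE 0.10, edgeR adjusted p = 0.884). Ly6c2, a monocyte and neutrophil antigen gene, was at 193, 5.65, 0.151 and 0.115 CPM in miR652-KD and at 0.0673, 109, 62.2 and 219 CPM in NTC, with wide overlap. Over 9 Ly6 and related genes, Ly6a and Thy1 included, 4 were tested, 3 above 0 and 1 below, and 0 passed.

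Thy1 (ENSMUSG00000032011.5, chromosome 9, 44043384 to 44048579, plus strand), a lipid-anchored antigen of T cells found at low level on HSCs in some strains, had 32, 76, 246 and 81 counts in miR652-KD, and 131, 45, 65 and 116 counts in NTC. That is 2.18, 4.62, 12.4 and 4.67 CPM in miR652-KD, and 8.81, 3.21, 3.88 and 7.93 CPM in NTC. The groups overlapped, with miR652-KD replicate 3 the highest. The T-cell receptor complex genes Cd3e and Cd3g were at 0 counts in all libraries. Lck, another T-cell gene, was at 13.6 to 43.3 CPM in miR652-KD and 16.6 to 28.2 CPM in NTC. The part of T cells in the Thy1 level was not tested. The log2 fold change was 0.01 (SE 0.67, edgeR adjusted p = 0.9996), and it was -0.62 without miR652-KD replicate 3.

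Slamf1 and Cd48 are neighbours on chromosome 1, with 61.9 kb between them, and mark HSCs by opposite rules: CD150 is present and CD48 absent. Slamf1 (ENSMUSG00000015316.11, 171767127 to 171801184, plus strand) was at 65.8, 48.0, 56.0 and 35.8 CPM in miR652-KD, and at 33.9, 52.7, 38.3 and 36.1 CPM in NTC. The groups overlapped, since miR652-KD replicate 4 lay within the NTC values (log2 fold change 0.35, SE 0.24, edgeR adjusted p = 0.9477). With miR652-KD replicate 1 left out the Slamf1 log2 fold change was 0.21, and with NTC replicate 2 left out it was 0.53. Cd48 (ENSMUSG00000015355.13, 171682009 to 171705258, plus strand) was at 10.8, 12.0, 0 and 12.8 CPM in miR652-KD, and at 3.09, 6.63, 18.7 and 11.0 CPM in NTC. The groups overlapped. Replicate 3 of miR652-KD had 0 Cd48 counts, which allows up to 0.151 CPM (3 counts), for counting error alone. The log2 fold change of -0.15 (SE 1.13, edgeR adjusted p = 0.9993) turned to 0.27 without that library.

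Cd48 was the least steady of the 10. Its SD within groups was 1.47 on the log2(CPM + 1) scale, at the 97.8th percentile of tested genes, where the median was 0.44. The profiles nearest to it were those of Maoa (root mean square difference 0.61), Arid5a (0.65) and Cyb5d2 (0.67). The range over the libraries was 4.30 log2 for Cd48 and 1.04 log2 for Cd34, so these differences are not on a par with those given for Cd34. Of 11 SLAM family and adaptor genes, Slamf1 and Cd48 included, 6 were tested, 3 above 0 and 3 below, and 0 passed. Cd244a, the receptor that binds CD48, was at 3.10 to 12.0 CPM in miR652-KD and 11.6 to 18.6 CPM in NTC (log2 fold change -0.74, SE 0.46, edgeR adjusted p = 0.9343). Cd84, another SLAM receptor gene, averaged 124.3 ± 12.8 CPM in miR652-KD and 112.5 ± 24.0 CPM in NTC (SD, n = 4 each). The adaptor gene Sh2d1a had 0 counts in every library.

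Procr (ENSMUSG00000027611.12, chromosome 2, 155751117 to 155755471, plus strand), the endothelial protein C receptor, was at 150, 155, 158 and 161 CPM in miR652-KD, and at 147, 104, 157 and 180 CPM in NTC. The miR652-KD values sat inside the wider NTC range. The means were 156 ± 4.55 CPM in miR652-KD and 147 ± 32.0 CPM in NTC (SD, n = 4 each), with a log2 fold change of 0.09 (SE 0.15, edgeR adjusted p = 0.9993). F2r, the thrombin receptor through which activated protein C can signal, had a log2 fold change of -0.27 (SE 0.16, edgeR adjusted p = 0.9283). Of 12 ligand and partner genes of the markers, 8 were tested, 4 above 0 and 4 below, and 0 passed.

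Cd27 (ENSMUSG00000030336.14, chromosome 6, 125232622 to 125237010, minus strand), a receptor of the tumour necrosis factor family, was at 315, 309, 281 and 300 CPM in miR652-KD, and at 362, 327, 375 and 342 CPM in NTC. All miR652-KD values lay below all NTC values by a small margin. The means were 301.2 ± 15.1 CPM in miR652-KD and 351.6 ± 20.8 CPM in NTC (SD, n = 4 each), a log2 fold change of -0.22 (SE 0.09) that did not pass (edgeR adjusted p = 0.8029). Its SD within groups of 0.08 log2 was at the 0.306th percentile of tested genes, the steadiest of the 10. Its ligand gene Cd70 had 0 counts in all libraries. Of the Cd27 exons, 129 bases are shared with the microRNA gene Mir8113 on the same strand.

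Cd9 (ENSMUSG00000030342.8, chromosome 6, 125460266 to 125494791, minus strand), a tetraspanin of HSCs and megakaryocytes, was at 213, 221, 282 and 263 CPM in miR652-KD, and at 204, 187, 219 and 238 CPM in NTC. The groups overlapped, with a log2 fold change of 0.21 (SE 0.12, edgeR adjusted p = 0.9182). Of the Cd9 exons, 218 bases are shared with Gm26728 on the other strand, whose reads cannot be separated without strand. Of 18 tetraspanin genes, Cd9 included and all tested, 11 were above 0 and 7 below, and 0 passed. Cd81 was at 673, 759, 695 and 651 CPM in miR652-KD and 488, 632, 571 and 616 CPM in NTC without overlap (log2 fold change 0.27, SE 0.11, edgeR adjusted p = 0.8029). Cd151 had overlap and a log2 fold change of 0.89 (SE 0.41, edgeR adjusted p = 0.8377).

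**Figure D3:**
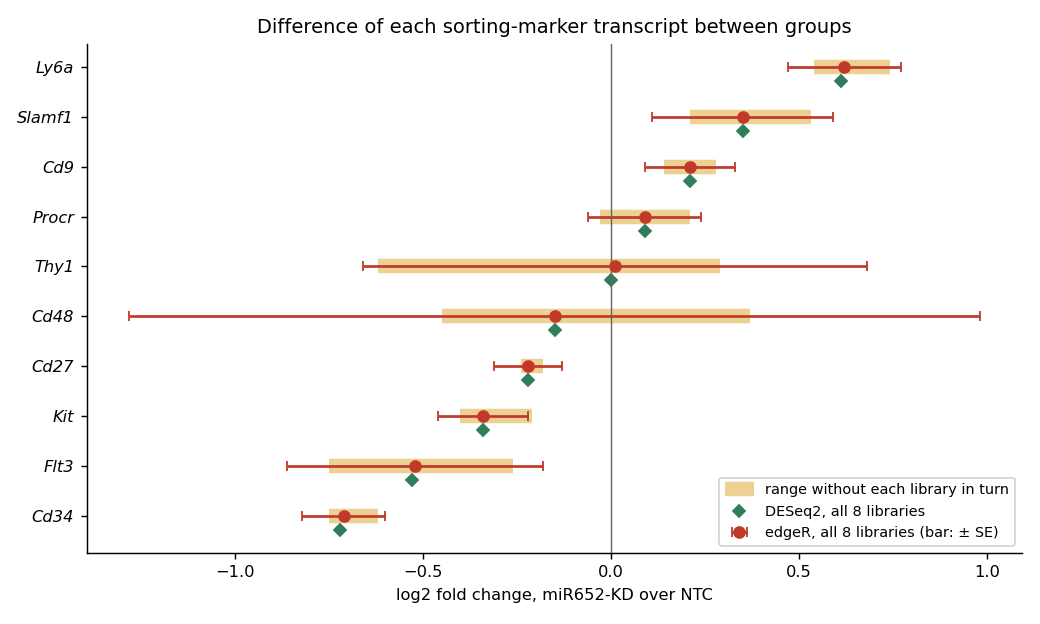
Log2 fold change of each transcript, miR652-KD over NTC, from edgeR with its SE (points and bars) and from DESeq2 (diamonds), with the range of values when single libraries were left out (band). The bands of Cd34, from -0.75 to -0.62, and Ly6a, from 0.54 to 0.74, stay away from 0. So do those of Kit, Flt3, Slamf1, Cd27 and Cd9, whereas those of Cd48, Thy1 and Procr cross 0.

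Other surface genes of HSCs were examined beside the 10. Of 26 such genes 25 were tested, 11 above 0 and 14 below with a median of -0.07, and 0 passed. The integrin gene Itgb3 was at 26.2, 33.3, 36.9 and 33.4 CPM in miR652-KD and 69.5, 47.4, 59.0 and 70.7 CPM in NTC, without overlap (log2 fold change -0.92, SE 0.19, edgeR adjusted p = 0.4696). Abcg2, the dye-efflux pump of the side population, was at 165, 171, 167 and 168 CPM in miR652-KD and 137, 150, 129 and 137 CPM in NTC, also without overlap (log2 fold change 0.28, SE 0.10, edgeR adjusted p = 0.7795). Itga6 had a log2 fold change of -0.56 (SE 0.21, edgeR adjusted p = 0.8029).

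Of 14 progenitor surface genes 10 were tested, 2 above 0 and 8 below with a median log2 fold change of -0.41, against -0.00 over all tested genes, and 0 passed. Csf3r, the receptor for granulocyte colony-stimulating factor, was at 81.3, 126, 76.6 and 86.0 CPM in miR652-KD and 159, 218, 125 and 158 CPM in NTC, with an overlap of miR652-KD replicate 2 and NTC replicate 3 (log2 fold change -0.84, SE 0.21, edgeR adjusted p = 0.5976). Fcgr2b and Il3ra followed by p, with log2 fold changes of -1.24 (SE 0.66) and -0.45 (SE 0.38). The 15 HSC genes outside the 10 were all tested, 10 above 0 and 5 below with a median of 0.14, and 0 passed. Their summed level was 4211 to 4759 CPM in miR652-KD and 3623 to 3993 CPM in NTC. A large share of it was Ifitm1, an interferon-induced membrane protein gene, at 1688 ± 140 CPM in miR652-KD and 1353 ± 191 CPM in NTC (SD, n = 4 each). The regulator gene Mllt3 was at 242, 192, 321 and 197 CPM in miR652-KD and 144, 192, 123 and 171 CPM in NTC, with miR652-KD replicate 3 the highest library (log2 fold change 0.60, SE 0.20, edgeR adjusted p = 0.7787). Mycn followed at 0.46 (SE 0.15, edgeR adjusted p = 0.7787). The 5 genes below 0 included Mecom at -0.33 (SE 0.13, edgeR adjusted p = 0.8029) and Hlf at -0.14 (SE 0.08, edgeR adjusted p = 0.9343).

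Granule genes of myeloid progenitors were far apart among libraries of the same group. Mpo, myeloperoxidase, was at 1979, 182, 0.251 and 235 CPM in miR652-KD, and at 3.36, 1095, 1005 and 1718 CPM in NTC. Elane, neutrophil elastase, was at 1920, 4.32, 0.101 and 9.87 CPM in miR652-KD and at 0.471, 983, 1311 and 2535 CPM in NTC. The library lowest in Mpo and Elane in each group was also its lowest in Cd48 and its highest in Thy1, namely miR652-KD replicate 3 and NTC replicate 1. In Cd34 and Kit these 2 libraries did not behave alike: miR652-KD replicate 3 was the lowest of all in Cd34, and NTC replicate 1 was the highest of all in Kit. With both left out, the log2 fold change of Cd34 was -0.63 and that of Ly6a 0.66 (edgeR adjusted p = 0.3203 each), an alternative chosen after the data were seen.

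Genes of other cell types were summed per library. The 12 erythroid genes summed to 1798 to 4562 CPM in miR652-KD and 4194 to 7973 CPM in NTC, with 12 tested, 10 of them below 0 and 0 passed. Car2, a carbonic anhydrase gene, held much of that sum, at 1760, 2147, 1889 and 2216 CPM in miR652-KD and 1783, 2169, 1974 and 1298 CPM in NTC, with overlap. Without Car2, left out after the values were seen, the sums were 38.2, 121.8, 195.4 and 2347 CPM in miR652-KD and 2411, 5804, 2373 and 4203 CPM in NTC, and the groups did not overlap. The beta-globin gene Hbb-bt was also without overlap, at 10.0, 13.4, 23.8 and 124 CPM in miR652-KD and 156, 376, 187 and 380 CPM in NTC (log2 fold change -2.68, SE 0.76, edgeR adjusted p = 0.7208). The 12 neutrophil genes summed to 625.7 to 5490 CPM in miR652-KD and 570.2 to 15653 CPM in NTC, with 9 tested and 9 below 0, and 0 passed. The 12 macrophage and dendritic genes, among them Flt3 of the 10 markers, summed to 828.6 to 1060 CPM in miR652-KD and 747.5 to 2343 CPM in NTC. Of these genes 7 were tested, 3 above 0 and 4 below, and 0 passed. Their median log2 fold change of -0.52 was the value of Flt3 itself. In the same list Cd68, a lysosomal protein gene, had a log2 fold change of 0.99 without overlap (SE 0.27, edgeR adjusted p = 0.6812). Lyz2, lysozyme, had one of -0.66 with overlap (SE 0.32, edgeR adjusted p = 0.8594). The 8 mast cell and basophil genes summed to 403.9 to 495.7 CPM in miR652-KD and 297.2 to 478.2 CPM in NTC, most of it Gata2, which HSCs also express, and Cma1 and Prss34 were at 0 counts. The 13 B and T cell genes summed to 57.7 to 136.1 CPM in miR652-KD and 68.7 to 106.6 CPM in NTC, with Cd3e, Cd3g, Trbc1 and Trbc2 at 0 counts. Much of that sum was Lck and Cd79b, the latter at 44.0 to 62.5 CPM in miR652-KD and 48.6 to 78.4 CPM in NTC. The 10 megakaryocyte genes summed to 909.1 to 1076 CPM in miR652-KD and 908.5 to 1262 CPM in NTC, and the 9 endothelial genes, of which Cdh5 was at 0 counts, to 165.2 to 261.5 CPM in miR652-KD and 173.4 to 230 CPM in NTC. The 14 genes for antigens of mature lineages summed to 6.79 to 204.7 CPM in miR652-KD and 3.09 to 264 CPM in NTC. The part of these other transcripts in the differences of the 10 markers was not tested beyond the values given.

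**Figure D4:**
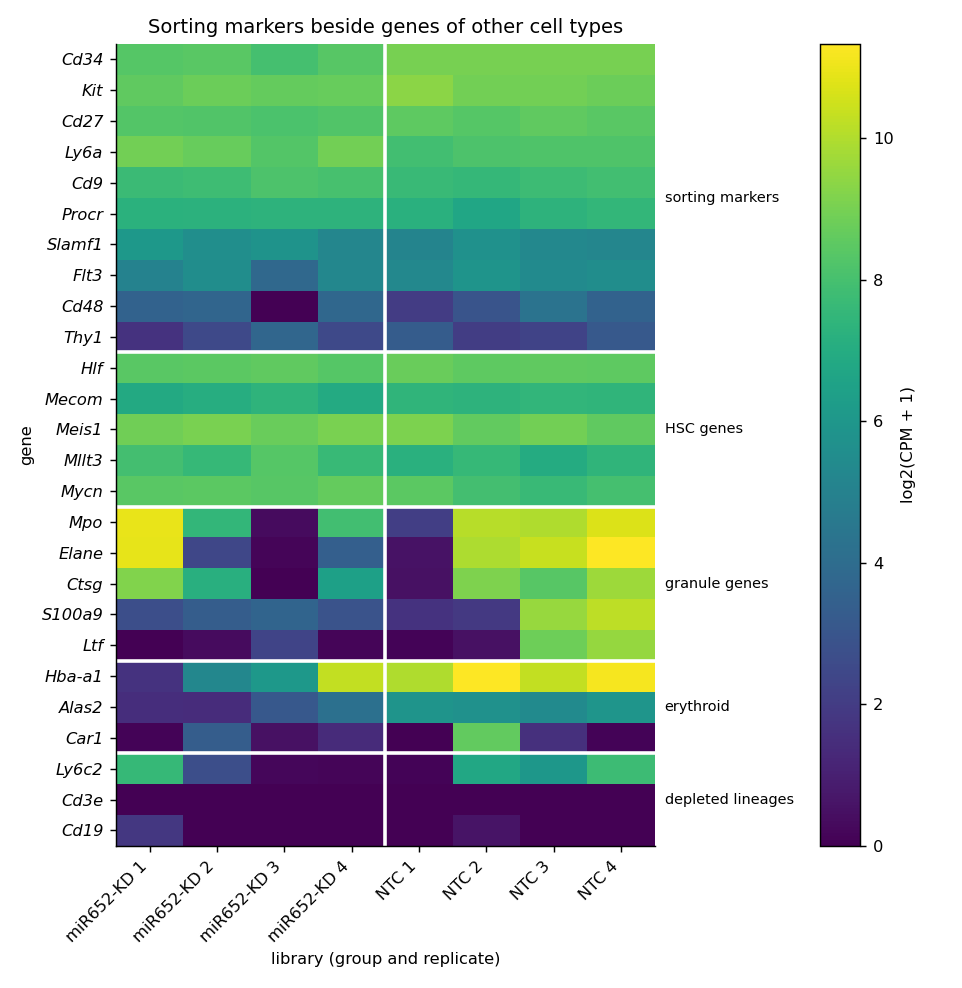
Level of the 10 sorting-marker transcripts and of genes of HSCs and other blood cells in each library, as log2(CPM + 1), with miR652-KD libraries left of NTC libraries. Cd48, at 0 CPM in miR652-KD replicate 3, is the least even of the markers in the upper block. In the block of granule genes Elane ran from 0.101 to 1920 CPM in miR652-KD and from 0.471 to 2535 CPM in NTC. The block named depleted lineages holds genes for antigens of mature lineages, and the labels do not give a depletion step.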

How the data were processed

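The authors deposited whole-number read counts per gene, 1 file per library, with 55487 gene rows and 5 HTSeq summary lines. Per the submitters' processing notes, HISAT2 2.1.0, HTSeq 0.11.2, DESeq2 and the mm10 build were used. For the annotation release and the strand setting, the answer is not given in the sources used here. The summary lines (reads outside genes 9.69% to 16.94%, ambiguous reads 8.94% to 12.28% of the file) were kept out of library sizes. Identifiers were matched without version to GENCODE M21, in which 55394 were found.

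CPM were scaled to the sum of all gene counts. Groups were compared in R 4.3.3 by edgeR 4.0.16, using TMM scaling, filterByExpr (minimum count 10, total 15), robust quasi-likelihood fits of group and Benjamini-Hochberg adjustment over all 14360 genes, called below 0.05. Each SE was derived from the log2 fold change and its F statistic. The procedure was also run on simulated counts, with an outcome not reported here. Changes put into those counts were larger than that of any of the 10 genes. Genes were drawn independently, without the uneven transcripts of other blood cells, so that run does not bear on these calls. Alternatives were other scalings and filters, a non-robust fit, DESeq2 1.42.0, limma-voom (limma 3.58.1), the replicate number as a block and leaving out libraries.

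The 10 genes, the lists and the tests were chosen with earlier results of these data known. Named were the 10 genes, up to 3 genes of smallest p per list, the 3 nearest profiles to Cd34 and to the widest-ranging gene, and genes singled out after their values were seen, such as Mpo, Elane, Hba-a1 and Hlf. Some genes of these lists are not reported here. Amplified copies count as reads here, so counting intervals cover counting error only.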

Additional observations from a re-analysis of the deposited data

Results flagged for a closer look

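In 4 of 44 groups of 4 libraries checked, 1 library lay far outside the other 3 by Dixon's ratio (beyond its 95% critical value), where chance flags about 1 in 20 groups. Cd48 was at 0 CPM in miR652-KD replicate 3 and at 10.8 to 12.8 CPM in the other miR652-KD libraries (ratio 0.844). The 12 erythroid genes summed to 4562 CPM in miR652-KD replicate 4 and to 1798 to 2269 CPM in the others (ratio 0.830). Without Car2 that library had 2347 CPM and the others 38.2 to 195.4 CPM. The 12 neutrophil genes summed to 5490 CPM in miR652-KD replicate 1 and to 625.7 to 1068 CPM in the others (ratio 0.909). Reads outside annotated genes made up 16.94% in NTC replicate 1 and 10.39% to 11.35% in the other NTC libraries (ratio 0.853).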

How the results depend on the processing

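Of 199 recomputed log2 fold changes of the 10 genes, 184 kept their direction and stayed past or short of the threshold as first reported. Cd34 passed with DESeq2 (-0.72) and limma-voom (-0.70), and Ly6a with DESeq2 (0.61), so that 2 and 1 of the 10 passed, against 61 and 7 of all genes. Cd34 ran from -0.75 to -0.62 and Ly6a from 0.54 to 0.74 without single libraries, where 0 of 10 passed in each case (3 to 4 at an unadjusted p below 0.05). Thy1 turned negative with limma-voom (-0.16), the replicate block (-0.14), without NTC library 2 and miR652-KD library 4 (-0.09) and without NTC library 1 and miR652-KD library 3 (-0.39), and ran from -0.62 to 0.29 without single libraries. Cd48 ran from -0.45 to 0.37 and Procr from -0.03 to 0.21 without single libraries. Cd48 was at -1.44 with limma-voom and at 0.87 without NTC libraries 3 and 4, Slamf1 at 0.66 (unadjusted p = 0.01809) without NTC library 2 and miR652-KD library 4, and Procr at -0.05 without NTC library 2 and miR652-KD library 4. The causes were not tested. Thy1 gave no value under the filter of 5 CPM in 4 libraries.

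Over all genes DESeq2 passed 61. Leaving out any single library left 0 genes (789 to 992 at an unadjusted p below 0.05). Leaving out NTC libraries 3 and 4 left 0 (884), NTC library 2 and miR652-KD library 4 left 0 (846), and NTC library 1 and miR652-KD library 3, chosen after the data were seen, left 0 (824). With the replicate number as a block 0 genes passed (733). Same-numbered libraries did not deviate together (correlations of -0.19 to -0.03 over 8073 genes). The labels do not say what the numbers share, so these correlations cannot tell whether the libraries were paired. In the order by level per kilobase, 2 genes changed place with the longest transcript as length and 0 to 3 without single libraries. Thy1 and Cd48 had means of 89 to 153 counts per library in each group, a counting CV of 8.08% to 10.6%, against CVs between libraries of 47.4% to 74.3%.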
